A study of Mus musculus with 6 samples.

Results

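A set of 80 known piRNAs of the mouse testis lay more than 3-fold below every control value in every library taken after a heat bath. They were selected on their measured values: a species qualified if its identifier began with mmu_piR_, if its control mean was at least 20 and below 500 RPM, and if each heat stress value was under the lowest control value divided by 3. RPM is the number of reads per 1000000 reads on the listed species of a library. The rule found 80 of 24845 listed mmu_piR_ species, in a series that lists 659239 small RNA species in all. Of the mmu_piR_ species, 4643 had a control mean in this range, so the members made up 1.72% of those that could qualify on abundance. Because the rule used both groups, the fall of the members is a description and carries no test.

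The samples were testes of C57BL/6 mice, with 3 libraries from the control group and 3 from the heat stress group. In the control group the scrotum was held in water at 36 °C for 15 minutes, and in the heat stress group in water at 43 °C for the same time, so both groups had been through a bath. Tissue was taken 24 hours later. The labels divide 12 mice between the groups and do not say how many mice stand behind a library, so the spread between libraries may be biological or technical.

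PIWI-interacting RNAs are small RNAs of the germ line that are bound by PIWI proteins, such as MILI and MIWI in the mouse testis. They are cut from long single-stranded precursor transcripts, many of which come from genomic clusters. PIWI proteins use them as guides to recognise transposon and other transcripts by base pairing. Spermatocytes and spermatids hold most of the piRNAs of an adult testis, and these cells are known to be sensitive to heat. In whole testis, fewer cells of a type and less RNA per cell cannot be told apart. The files identify each piRNA by a number, and sequences, lengths and genomic positions were not used here. No role can therefore be given for a single member.

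Reads on listed species numbered 2573473 to 4255001 in the control libraries, and 2260175, 2599530 and 582789 in heat stress replicates 1, 2 and 3. One read was worth 1.72 RPM in heat stress replicate 3 and 0.235 to 0.442 RPM in the other libraries. The mmu_piR_ species together took 67.2% to 67.3% of the control reads, and 87.5%, 77.2% and 92.6% in heat stress replicates 1, 2 and 3. This share rises with the group while the members fall, so its scale is treated separately below. In RPM, heat stress replicate 2 was the library of its group with levels nearest to the controls by the median. The TMM factors of the scaling described below were 0.554, 0.997 and 0.952 in heat stress replicates 1, 2 and 3. The order of these libraries can therefore differ on that scale. Over the 4643 mmu_piR_ species in the abundance range, the median level was 94.4% of the control mean in replicate 2, against 52.5% in replicate 1 and 75.1% in replicate 3.

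By the terms of the rule, the members had control means of 20 to 500 RPM and lower levels after heat. Their control means ran from 20.1 to 388 RPM, with a median of 65.6 RPM. Their heat stress means ran from 0.532 to 63.1 RPM, with a median of 8.08 RPM. By library, the median member stood at 66.1, 60.3 and 65.3 RPM in control replicates 1, 2 and 3, and at 4.87, 12.1 and 7.72 RPM in heat stress replicates 1, 2 and 3. Medians of the 3 controls lay close together, and each heat stress median lay below all of them.

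**Figure D1:**
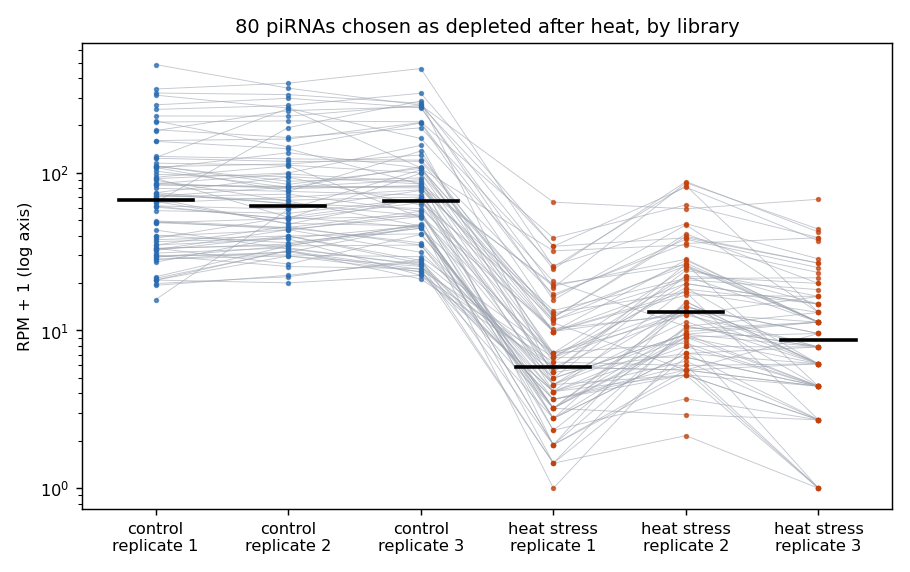
RPM + 1 (log axis) of each of the 80 members in each of the 6 libraries, with points for members, grey lines joining the values of a member and black bars for the medians. The control medians lie between 60.3 and 66.1 RPM and the heat stress medians between 4.87 and 12.1 RPM, with replicate 2 the highest of the heat stress libraries.

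The heat stress mean of a member was between 1.60% and 25.6% of its control mean. The median was 13.4%, which is 7.49-fold lower, and the middle of the distribution lay between 10.4% and 18.0% (quartiles). By means, 66 members were at least 5-fold lower, 18 at least 10-fold and 4 at least 20-fold. The median over all 4643 species in the abundance range was 78.5%. The depth of loss showed no steady trend with the starting level. The median level left was 14.0% for 32 members with a control mean of 20 to 50 RPM, 13.3% for 26 members at 50 to 100 RPM, 12.4% for 13 members at 100 to 200 RPM and 16.7% for 9 members at 200 to 500 RPM. The members made up 1.32%, 2.27%, 2.0% and 2.13% of the species in these 4 bands.

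**Figure D2:**
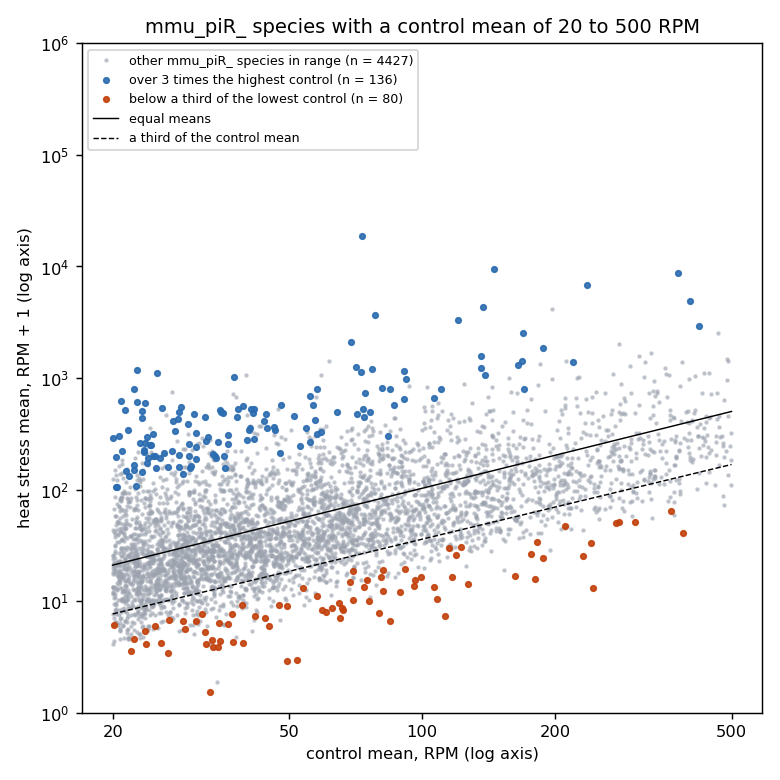
Control mean in RPM (horizontal, log axis) against heat stress mean in RPM + 1 (vertical, log axis) for the 4643 mmu_piR_ species with a control mean of 20 to 500 RPM; orange points are the 80 members, blue points the 136 species above 3 times the highest control value in every heat stress library. The members lie along the lower edge at all starting levels, with a median of 13.4% of the control mean.

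The 8 members with the highest control means lost the most reads. mmu_piR_000130 was the most abundant, at 339, 369 and 457 RPM in control replicates 1, 2 and 3 and at 24.3, 81.9 and 12.01 RPM in heat stress replicates 1, 2 and 3. Its mean went from 388 ± 61.4 to 39.4 ± 37.3 RPM (SD, n = 3), 9.85-fold lower. The heat stress libraries did not agree on its level, replicate 2 being the highest and replicate 3 the lowest.

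mmu_piR_016716 stood at 484, 343 and 267 RPM in the controls and at 64.2, 58.1 and 66.9 RPM after heat. Here the spread in RPM lay among the controls, and the heat stress libraries were almost equal, at 63.1 ± 4.52 RPM (SD, n = 3). This member is also among the 4 named for the narrowest range after heat. With the TMM scaling described below it stood at 39.5%, 19.9% and 24.0% of its control mean in heat stress replicates 1, 2 and 3. mmu_piR_029621 stood at 319, 312 and 275 RPM in the controls and 23.4, 86.9 and 41.2 RPM after heat, a 5.98-fold lower mean. mmu_piR_039969 stood at 251, 266 and 318 RPM and at 33.2, 80.0 and 36.0 RPM, 5.599-fold lower. In both of these heat stress replicate 2 was the highest of its group by more than 2-fold over the next.

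mmu_piR_032367 had the deepest loss among these abundant members. It stood at 309.5, 256 and 164 RPM in the controls and at 19.5, 9.62 and 6.86 RPM after heat, from 44, 25 and 4 reads. Its mean went from 243 ± 73.6 to 11.98 ± 6.63 RPM (SD, n = 3), 20.3-fold lower. In this member, unlike most, heat stress replicate 1 was the highest of its group.

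mmu_piR_013105 stood at 228, 227 and 267 RPM in the controls and at 33.2, 37.7 and 25.7 RPM after heat, 7.48-fold lower, with little spread in either group. mmu_piR_028872 stood at 184, 247 and 261 RPM in the controls and at 14.6, 45.8 and 12.01 RPM after heat, 9.55-fold lower. In mmu_piR_028872 heat stress replicate 2 was again well above the other two. mmu_piR_005329, with 269, 296 and 258 RPM in the controls and 17.7, 85.4 and 42.9 RPM after heat, lay close to the limit of the rule.

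The deepest losses of all rested on very few reads. mmu_piR_025935 stood at 42.3, 32.0 and 25.3 RPM in the controls. After heat it had 1 read in replicate 1, 3 reads in replicate 2 and none in replicate 3, or 4 reads in all (exact Poisson 95% interval 1.09 to 10.2 reads). The ratio of its means was 62.4-fold, from 33.2 ± 8.61 to 0.532 ± 0.582 RPM (SD, n = 3). The count of 0 in replicate 3 allows up to 5.15 RPM, taken as 3 reads, and up to 6.33 RPM by the upper end of the two-sided exact Poisson 95% interval. Poisson intervals and such limits cover counting error only.

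mmu_piR_009108 stood at 64.8, 46.8 and 45.1 RPM in the controls and at 2.21, 1.92 and 1.72 RPM after heat, from 5, 5 and 1 reads, too few to compare the heat stress libraries with each other. The ratio of its means was 26.8-fold, and its 11 heat stress reads have a Poisson interval of 5.49 to 19.7. mmu_piR_002790 also had 11 reads after heat, and its means differed 25.9-fold. Its controls were uneven, at 14.7, 57.6 and 76.2 RPM, against 1.33, 2.69 and 1.72 RPM after heat, so the size of its loss depends on which control it is set against.

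mmu_piR_032295 stood at 90.9, 98.7 and 148 RPM in the controls and at 3.54, 10.4 and 5.15 RPM after heat, 17.7-fold lower. mmu_piR_011054 stood at 92.7, 109.8 and 50.9 RPM in the controls and at 0.442, 9.62 and 6.86 RPM after heat, the first of these values being 1 read. Its heat stress values spread over a wide range, although all were far below the controls. mmu_piR_003240 stood at 35.6, 37.4 and 45.1 RPM in the controls and at 1.77, 6.15 and 1.72 RPM after heat, 12.2-fold lower.

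mmu_piR_000444 also had uneven controls. It stood at 64.0, 192 and 284 RPM in the controls and at 3.98, 21.2 and 18.9 RPM after heat, 12.3-fold lower by means. Control replicate 1 was low in both mmu_piR_000444 and mmu_piR_002790. Such spread was rare: the highest control value was over 2 times the lowest in 6 of the 80 members. The median ratio of the highest to the lowest control was 1.35 in the members and 1.30 over all species in the abundance range.

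The members varied more between libraries after heat than before it, and so did the other species in range. The standard deviation between libraries was 15.2% of the mean in the controls and 55.0% in heat stress (medians over members), where Poisson counting alone gives 6.70% and 32.4%. For the 4563 other species in range it was 13.9% and 49.1%, where counting alone gives 7.88% and 13.5%. Heat stress replicate 2 held the highest value of its group in 62 members, replicate 3 in 12 and replicate 1 in 6. Replicate 1 held the lowest value in 50 members. The order was less marked among the 4563 other species in range, of which 50.4% had their highest heat stress value in replicate 2, 33.2% in replicate 3 and 16.4% in replicate 1, against 77.5%, 15.0% and 7.50% of the members. This difference was not tested, because the rule limits how high any heat stress value of a member can be. These orders are in RPM. With the TMM scaling described below, the median member stood at 17.2%, 26.4% and 15.7% of its control mean in heat stress replicates 1, 2 and 3. Which library was lowest thus depended on the scale.

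In 22 members replicate 2 was more than 2 times both other heat stress libraries, and in 16 members all 3 libraries lay within 2-fold. The widest range was in mmu_piR_008040, with 2.21, 7.69 and 0 RPM after heat (5, 20 and 0 reads) against 33.8, 44.7 and 33.8 RPM in the controls. mmu_piR_038511 stood at 0.885, 14.2 and 5.15 RPM after heat against 70.0, 80.1 and 89.4 RPM in the controls. mmu_piR_026198 stood at 0, 6.92 and 3.43 RPM after heat against 20.9, 33.4 and 46.2 RPM in the controls. In all 3 of these replicate 2 was the highest, and the other libraries held at most 5 reads.

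At the other end, mmu_piR_027007 had the narrowest range over the heat stress libraries. It stood at 19.9, 19.04 and 21.4 RPM in the controls and at 5.31, 5.001 and 5.15 RPM after heat, from 12, 13 and 3 reads. Its loss was also the smallest of all members, 3.90-fold by means. mmu_piR_007026 stood at 31.2, 38.8 and 26.8 RPM in the controls and at 4.87, 4.62 and 3.43 RPM after heat, 7.50-fold lower. These members were chosen for their narrow range, and with 3 and 2 reads in replicate 3 a several-fold spread between libraries could not have been seen.

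The edges of the rule divide species with nearly the same values. Just inside the 3-fold limit lay mmu_piR_030833, with 60.4, 49.8 and 63.7 RPM in the controls and 11.9, 16.5 and 1.72 RPM after heat, and mmu_piR_005329. Just outside it lay mmu_piR_028895, with 187, 219 and 246 RPM in the controls and 25.7, 62.3 and 42.9 RPM after heat, and mmu_piR_019012, with 32.8, 28.7 and 29.5 RPM and 3.98, 9.62 and 1.72 RPM. In all 4 the highest heat stress value was that of replicate 2, at 0.332, 0.331, 0.334 and 0.335 of the lowest control. At the lower bound of abundance mmu_piR_027007 had a control mean of 20.1 RPM, and mmu_piR_001894 fell just short with 19.8 RPM, going to 2.74 RPM after heat. No member lay near the upper bound, where the highest control mean was that of mmu_piR_000130. The first species beyond it that met the 3-fold limit was mmu_piR_032336, whose mean went from 506 to 82.6 RPM.

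The read counts set how well the low values are known. The median member had 256, 256.5 and 168 reads in control replicates 1, 2 and 3, and 11, 31.5 and 4.50 reads in heat stress replicates 1, 2 and 3. At its control mean a member would have had 11.7 to 226 reads in heat stress replicate 3, with a median of 38.2, so the shallow library was deep enough to show each member had it stayed at its control level. Members with 3 reads or fewer numbered 10, 1 and 33 in heat stress replicates 1, 2 and 3, of which 1, 0 and 5 had none. In 14 members each heat stress library held at least 10 reads.

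**Figure D3:**
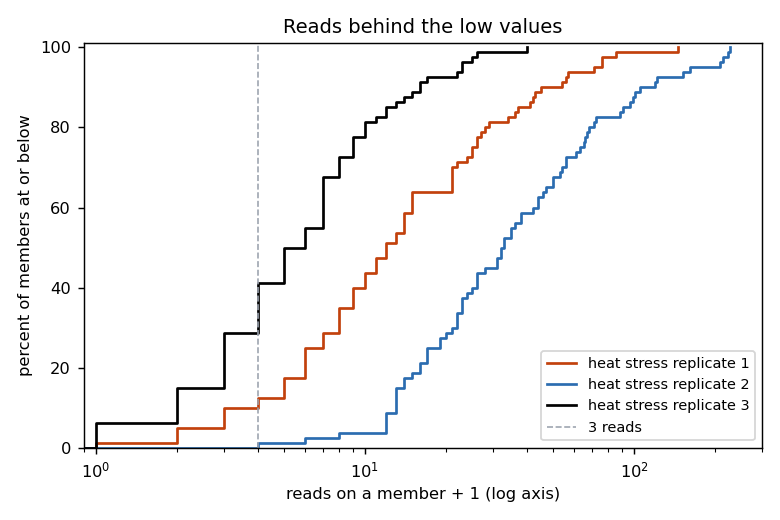
Percent of the 80 members (vertical) with at most the given number of reads + 1 (horizontal, log axis) in each heat stress library; the dashed line marks 3 reads. At or left of that line lie 33 members in replicate 3, 10 in replicate 1 and 1 in replicate 2.

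For each heat stress value an upper 95% limit was taken from the exact Poisson interval of its reads. This limit was below the lowest control value in all 80 members and all 3 heat stress libraries. It was below the lowest control value divided by 3 in 74, 31 and 35 members in replicates 1, 2 and 3, and in all libraries at once in 16 members. Counting error of the heat stress reads thus left every member under the measured controls in every heat stress library. It left the 3-fold margin in every library for 16 of them. The counting error of the controls was not included. The members had been chosen for these low values, so the limits describe precision and are no test.

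The members held a small part of the reads. Their summed share of all listed reads was 0.726%, 0.732% and 0.745% in control replicates 1, 2 and 3. It was 0.0698%, 0.154% and 0.0899% in heat stress replicates 1, 2 and 3, from 1578, 4005 and 524 reads. The mean share went from 0.734% ± 0.00966 to 0.105% ± 0.0440 (SD, n = 3), a loss of 0.630 percentage points and 7.02-fold lower. The controls were almost equal, and heat stress replicate 2 kept about as much as the other two libraries together.

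**Figure D4:**
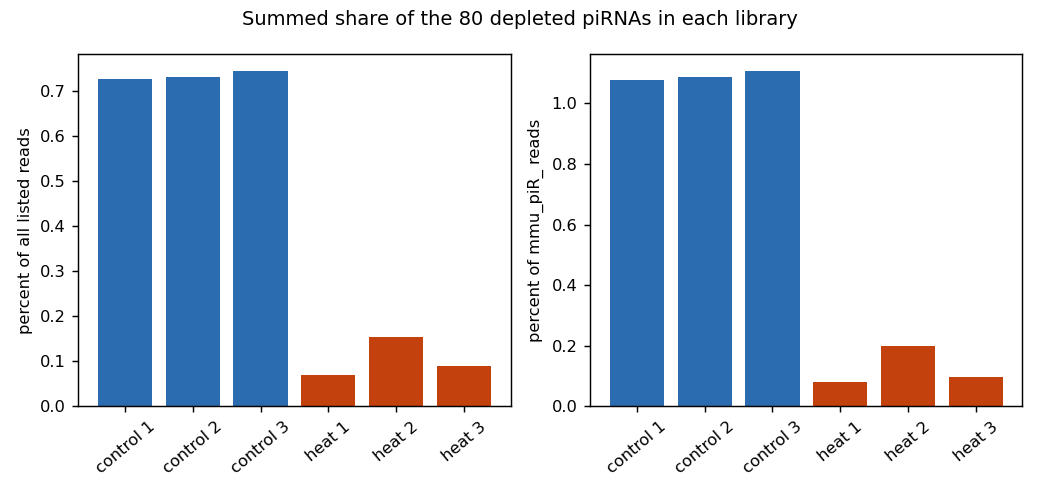
Summed share of the 80 members in each library, as percent of all listed reads (left) and of mmu_piR_ reads (right); bars start at 0 and each stands for 1 library. The control bars lie between 0.726% and 0.745% of listed reads and the heat stress bars between 0.0698% and 0.154%.

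Expressed in RPM, the members lost 6297 RPM in sum. Over all mmu_piR_ species, 11328 had a lower mean after heat, and their decreases summed to 229944 RPM. The members were 0.706% of these species and 2.74% of the summed decrease. Of the 80 members, the 8 with the largest decreases accounted for 31.8% of the members' summed loss and the 20 largest for 56.4%. The largest single decrease was 349 RPM, in mmu_piR_000130. Without the members, mmu_piR_ species held 66.5% ± 0.0483 of the control reads and 85.7% ± 7.88 of the heat stress reads (SD, n = 3), so the members fell while the class they belong to took a larger share.

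Scaling to the mmu_piR_ reads deepened the loss, since each heat stress library is then divided by a larger total than the controls. On this scale the members held 1.08%, 1.09% and 1.11% of the mmu_piR_ reads of the controls and 0.0798%, 0.199% and 0.0971% of those of heat stress replicates 1, 2 and 3. The mean went from 1.09% ± 0.0146 to 0.125% ± 0.0647 (SD, n = 3), 8.70-fold lower. All 80 members still met the 3-fold condition, and the median level left went from 13.4% to 10.8%. Applied anew to these values, the rule took 161 of 5793 species in its range, of which 78 were among the 80.

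TMM scaling, which assumes that most species are unchanged, moved the values the other way. All 80 members stayed below every control value, but 34 met the 3-fold condition and the median level left was 20.9%, between 2.44% and 41.1%. The condition was missed in 18 members through heat stress replicate 1, in 36 through replicate 2 and in 12 through replicate 3. Over the 4643 species in range the median level left was 118% with TMM, 78.5% in RPM and 62.7% when scaled to the mmu_piR_ reads. The members were thus lower on all 3 scales, and how many lay beyond 3-fold depended on the scale.

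**Figure D5:**
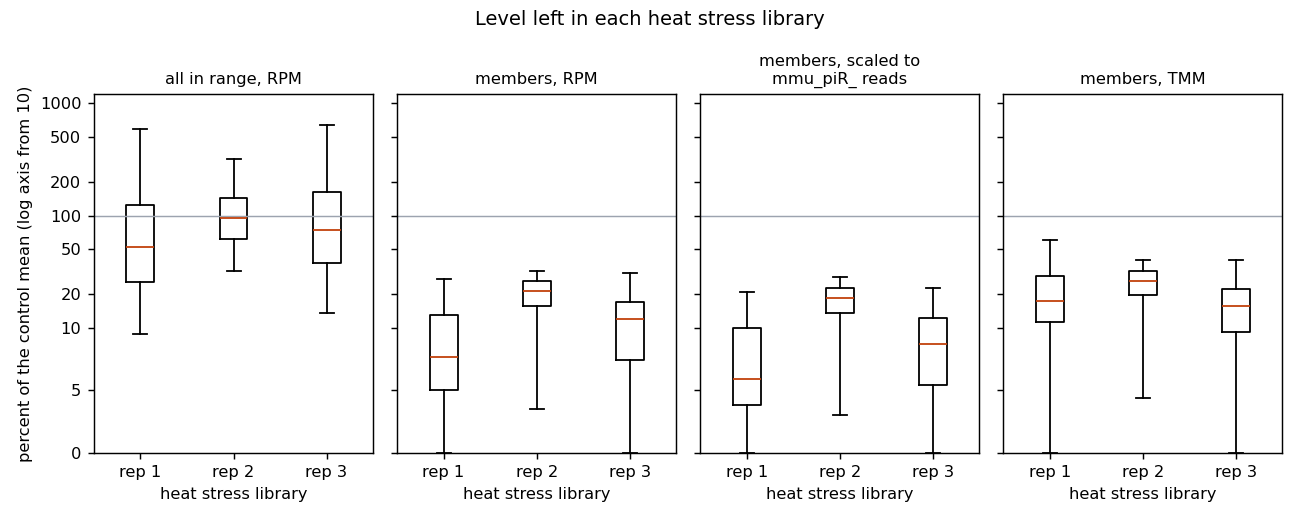
Level in each heat stress library as percent of the control mean (vertical, linear to 10 and log above): all 4643 species in range in RPM (whiskers at the 5th and 95th percentile), and the 80 members in RPM, scaled to mmu_piR_ reads and scaled by TMM (whiskers at the extremes). Boxes are quartiles and orange lines medians; the medians of the members in RPM are 7.68%, 21.3% and 12.02% in replicates 1, 2 and 3, against 52.5%, 94.4% and 75.1% for all species in range.

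Each library could be set against a choice made without it. Chosen on the controls and heat stress replicates 2 and 3 alone, 83 species qualified. In the left-out replicate 1, 80 of them (96.4%) were below the lowest control divided by 3, as were 27.2% of all 4643 species in range. Chosen without replicate 3, 111 species qualified and 80 (72.1%) were below this limit in replicate 3, against 16.4% of the species in range. In both cases this share was higher among the species chosen on the other libraries than over the range as a whole, a difference that was not tested. The 80 are the members by definition, and the same control values set both the choice and the limit.

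Heat stress replicate 2 set the number of members. Without it 561 species qualified, and 80 of these (14.3%) were below the 3-fold limit in replicate 2, against 2.86% of the species in range. In replicate 2, 522 of the 561 (93.0%) were below the lowest control, against 41.3% of the species in range. The 481 species that were 3-fold down in replicates 1 and 3 but not in replicate 2 had a median of 15.9%, 51.1% and 19.03% of the control mean in replicates 1, 2 and 3. They held 4.89% of the control reads on average, and 0.812%, 2.70% and 0.955% in heat stress replicates 1, 2 and 3. Control values entered both the choice and the limit in these comparisons, and the 80 are again the members by definition. The comparisons are therefore descriptions and do not show that the choice can be repeated.

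Leaving out any control also enlarged the choice, since the limit is set by the lowest control value and can only rise. Chosen without control replicate 1, 2 or 3, the rule took 105, 117 and 114 species, against 80 with all libraries. Of these, 84, 83 and 81 had every heat stress value more than 3-fold below the left-out control. Of all species in the corresponding ranges, 3.89%, 3.46% and 3.64% did so. Members made up 80, 80 and 77 of the 84, 83 and 81, and a member meets this limit by definition. The same heat stress values entered both the choice and the limit. These shares are therefore descriptions and do not show that the choice can be repeated.

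In the abundance range, losses beyond 3-fold were fewer than rises beyond 3-fold on the RPM scale, although values below all controls were more common than values above them. Every heat stress value was below every control value in 1532 species, or 33.0% of the 4643, and above every control value in 862. Beyond 3-fold the numbers were 80 down and 136 up. Over the same 4643 species they were 138 down and 98 up when scaled to mmu_piR_ reads, and 34 down and 232 up with TMM, so this order depended on the scale. Without overlap, 2025 of these species were lower and 648 higher when scaled to mmu_piR_ reads, and 901 lower and 1447 higher with TMM. The 136 species that rose beyond 3-fold gained 118002 RPM in sum, against the 6297 RPM that the members lost. These sums are not alike, since a member can lose at most its control mean while a rise has no such limit.

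Each species was also fitted across the whole table with limma on log2(RPM + 1). All 80 members passed the filter of 1 RPM in 3 or more libraries, as their control values of at least 14.7 RPM alone ensured. All 80 were called lower at an adjusted p under 0.05 (limma, Benjamini-Hochberg over 50786 species), beside 9.85% of the 17626 tested mmu_piR_ species. In all, 16046 of the 50786 species were called lower, and 899 of the 4643 mmu_piR_ species in the abundance range. Since the rule used the same contrast, nothing is read from the count of members. The log2 fold changes of the members ran from -4.52 to -1.78, with a median of -2.85, on a scale that understates the change of low species. The median over all tested mmu_piR_ species was 0.03, and over those in the abundance range -0.44. With values scaled to the mmu_piR_ reads 80 members were called lower, beside 10.8% of the mmu_piR_ species, and the median of the members was -3.21. Of the 4643 species in the abundance range, 1045 were called lower on that scale and 310 with TMM. With TMM 79 members were called lower, beside 3.12% of the mmu_piR_ species, and the median of the members was -2.26. The exception was mmu_piR_027007, the member with the smallest loss, with a log2 fold change of -1.21 and a limma adjusted p of 0.0755. Over all settings tried, including edgeR and DESeq2, its adjusted p ran from 0.00308 to 0.374.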

How the data were processed

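Small RNA was sequenced from mouse testis in 6 libraries, 3 per group. The deposited values are RPM, scaled by the authors to 1000000 listed reads per library, although the columns are named tpm per the file headers. Every value was a whole multiple of the smallest (100% within 0.001 of a read), so reads were recovered. The sources used here do not state trimming, aligner, genome build or piRNA database.

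Members were found by the rule in Python 3.11.15. limma 3.58.1 (R 4.3.3) was fitted on log2(RPM + 1) with trend and robust moderation, over 50786 species that reached 1 RPM in 3 or more libraries. edgeR 4.0.16 and DESeq2 1.42.0 on recovered reads were alternatives. The fits were tested on simulated data drawn with the spread between the control libraries. The heat stress libraries spread more, so that test does not cover their noise. Poisson intervals are exact (scipy 1.17.1).

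The members, lists and tests were chosen with earlier results of these data known. The named species are the 8 members with the highest control mean, the 8 with the lowest ratio of means, the 4 with the widest and the 4 with the narrowest range over heat stress libraries, and those at the edges of the rule. Replicates of 1 group differed by more than sampling noise (chi-square per degree of freedom 3.64 to 35.6). No cell type marker list applied to numbered species.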

Additional observations from a re-analysis of the deposited data

How the results depend on the processing

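The number of species taken by the rule was 80, and 310 with 2-fold in place of 3-fold, 18 with 5-fold, 48 with a control mean of at least 50 RPM, 161 when scaled to mmu_piR_ reads and 34 with TMM. When each library was left out it ran from 83 to 561, the highest value being that without heat stress replicate 2. The members' loss of share was -0.63 percentage points of listed reads (-0.654 to -0.612 with a library left out), -0.966 points of mmu_piR_ reads and -0.468 with TMM. The median ratio of heat stress to control was 0.134, and 0.209 with TMM. Over the limma, edgeR and DESeq2 alternatives 64 to 80 members were called lower, 64 without a filter on low values and 76 with edgeR and TMM. The rule used the same contrast, so nothing is read from these counts of members. The number of mmu_piR_ species called lower moved more. It was 248 of 24845 without a filter and 1100 of 8078 with at least 10 RPM. Of the 17626 tested in the other settings, 1737 were called in limma on RPM, 902 with a pseudocount of 0.1 and 550 with TMM. Array weights gave 3723, edgeR with TMM 415 and DESeq2 827. This number ran from 714 to 3531 when each library was left out, the lowest value lacking heat stress replicate 1 and the highest lacking replicate 2. It was 722, 782 and 760 when control replicates 1, 2 and 3 were dropped. The cause was not tested. Of 400 values for 25 named species, 6 lost the call, all of mmu_piR_027007, and none changed direction. Of the 25, 21 are members and the others lie at the edges of the rule. They were chosen on these same values, so nothing is read from these counts. The log2 fold change of mmu_piR_027007 was -1.78 in limma on RPM, -1.78 without a filter and -1.81 to -1.73 without a control. It was nearer to 0 with TMM, at -1.21 in limma and -1.28 in edgeR.

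With the replicate number as a block, limma called 80 members and 1882 of 17626 mmu_piR_ species lower, against 80 and 1737 without it. Libraries with the same number did not deviate together (Pearson's r of deviations across 50786 species, a description of these libraries: -0.017, 0.007 and 0.016). Such correlations cannot tell whether libraries with the same number shared a batch. The depth of heat stress replicate 3 limits the low values: 3 reads there are 5.15 RPM.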
